A study of Mus musculus with 10 samples.

Results

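The genes described here are 9 transcription factor genes with known roles in the growing hair bulb or in the epidermis (Foxn1, Dlx3, Hoxc13, Lef1, Msx2, Elf5, Foxe1, Gata3 and Ovol1) and the gene of the secreted ligand Sonic hedgehog (Shh). They were found by their symbols in the deposited expression table, and all 10 were among its 18994 listed genes. They were measured in cheek skin from 10 C57BL/6 mice of 6 to 8 weeks, kept free of specific pathogens. Both groups had the cheek shaved 3 days before the experiment. In the MMP9 group, 5 mice received 1 µg of matrix metalloproteinase 9, a secreted gelatinase, in 5 µL into the skin of the right cheek. In the vehicle group, 5 other mice received the same volume of vehicle. Tissue was taken 4 hours later, and each library came from 1 numbered mouse. The sources used here do not give what the vehicle held, the sex of the mice or the form of the MMP9 preparation. A single dose and a single time were measured.

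The hair bulb holds a matrix of dividing keratinocytes that surrounds the dermal papilla. Matrix cells leave the cycle and move up into concentric layers, the inner root sheath outside and the hair shaft inside, and the shaft layers switch on a special set of hard keratins. In the mouse, Wnt signals acting through β-catenin and Lef1, BMP signals, and a set of homeobox and forkhead factors control that switch, and loss of Foxn1 gives the hairless nude mouse. Shh is made by a restricted group of matrix cells and signals through its receptor Ptch1 and the Gli factors to neighbouring epithelial and dermal cells. The mouse hair cycle alternates between growth and rest, and the matrix exists only in growing follicles. In samples of whole tissue, fewer cells of a type and less RNA per cell cannot be told apart.

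Library totals lay between 17121541 and 19443099 rounded estimated counts, and the number of genes detected per library was 17225 to 17553. No pair of libraries was a duplicate, with a chi-square per gene of at least 18.5. MMP9 mouse 4 stood apart in composition: ribosomal protein genes made up 25.3% of its TPM, against 16.2% to 17.7% in the other libraries, and its TMM scaling factor was 0.843. All 15 markers of the interfollicular epidermis were tested, with a summed level of 15038 to 22611 CPM in MMP9 mice and 14549 to 23856 CPM in vehicle mice, so the label of skin fitted its markers. All 12 skeletal muscle markers were also present, at 17463 to 33887 CPM in MMP9 mice and 17750 to 34425 CPM in vehicle mice. CPM here means the estimated counts scaled to a common library size with the TMM factors. The hard keratins of the hair shaft set a pair of libraries apart. Their sum over 14 genes was 11.7 CPM in MMP9 mouse 1 and 11.2 CPM in vehicle mouse 2, against 458 to 1202 CPM in the other MMP9 mice and 633 to 3508 CPM in the other vehicle mice. The regulators are therefore also given with and without those 2 libraries.

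Promoter sequence was at hand for 5 of the 10 genes (Foxn1, Lef1, Msx2, Elf5 and Gata3), as 9 windows of the 250 bases before an annotated start, from RefSeq on GRCm38.p6. The sequences printed are examples that hold a core letter string of the homeobox or Lef1 families, to which several of the regulators belong. They come from an earlier build than the alignment, and no measurement here bears on binding to them. For Foxn1 the window is chr11:78386609-78386858 on the minus strand. For Lef1 it is the window before an internal start, chr3:131156044-131156293 on the plus strand. For Msx2 only a stretch of 30 bases is given, chr13:53472950-53472979 on the minus strand. Capitals mark TAATTA, a core bound by many homeodomains, in Foxn1 and Msx2, and CTTTGA, the core of Lef1 sites, read as TCAAAG in Lef1.
Foxn1: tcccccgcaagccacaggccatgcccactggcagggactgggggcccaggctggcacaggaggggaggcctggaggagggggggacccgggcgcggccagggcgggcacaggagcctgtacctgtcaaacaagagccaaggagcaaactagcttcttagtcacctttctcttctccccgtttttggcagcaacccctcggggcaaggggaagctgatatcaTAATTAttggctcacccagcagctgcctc
Lef1: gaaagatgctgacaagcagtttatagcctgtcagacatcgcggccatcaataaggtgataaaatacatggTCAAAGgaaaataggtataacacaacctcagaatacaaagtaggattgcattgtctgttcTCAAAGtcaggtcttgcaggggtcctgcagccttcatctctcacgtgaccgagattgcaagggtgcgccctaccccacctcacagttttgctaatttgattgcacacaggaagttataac
Msx2: tgactgctcctgTAATTAactcctaattta
TAATTA began 29 bases before the annotated start in Foxn1 and 187 bases before it in Msx2. All 250 bases of the Msx2 window also lay in annotated exon sequence of Msx2. The printed Foxn1 and Lef1 windows held no annotated exon bases. TAATTA is its own reverse complement, so both strands read alike, and it was in 4.84% of 32851 such windows over all genes. The Lef1 window held 2 copies of the CTTTGA core and an Elf5 window, not printed, held 1, and 13.8% of all windows held at least 1 copy on either strand. AGATAA, a core of GATA factor sites, was in 9.99% of all windows and in none of the 9. These matches are descriptions of the letters.

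Compared per transcript length, the genes covered a wide range of levels in cheek skin. Gata3 had the highest median over the 10 libraries at 67.1 TPM, followed by Ovol1 at 36.1 TPM and Dlx3 at 21.0 TPM. Hoxc13 had a median of 9.82 TPM, Foxn1 8.39 TPM and Msx2 6.08 TPM. Elf5 at 4.07 TPM and Lef1 at 3.17 TPM were lower, and Foxe1 at 1.06 TPM and Shh at 0.18 TPM were the lowest. The order was firm at the top and the bottom: Gata3 was above Ovol1, Dlx3 above Hoxc13, Lef1 above Foxe1 and Foxe1 above Shh in 10 of 10 libraries. The neighbours Foxn1 and Msx2 did not separate, with Foxn1 the higher in 6 of 10 libraries. Msx2 was above Elf5 in 8 of 10.

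None of the regulators passed the test between MMP9 and vehicle. The filter on low counts kept 9 of the 10 genes, all but Shh, and 0 of those 9 had an adjusted p under 0.05 in edgeR's quasi-likelihood test, where 0% of the 15250 genes tested did. Over all genes DESeq2 called 1, which was not a regulator, and limma-voom called 0. At an unadjusted p under 0.05 the count was 0 of 9, against 3.19% of all tested genes, of which 2.07% were higher and 1.12% lower in MMP9 mice. That count depended on single mice: it was 4 of 9 without vehicle mouse 2 (Foxn1, Dlx3, Msx2 and Elf5), 2 without vehicle mouse 1 (Foxn1 and Dlx3) and 2 without MMP9 mouse 3 (Dlx3 and Elf5), each with a fold change below 0 and an adjusted p between 0.910 and 0.999 in edgeR. Over all tested genes the counts in those fits were, in the same order, 492 of 15327, 531 of 15337 and 676 of 15292. The log2 fold change of MMP9 over vehicle was below 0 for 9 of 9, against 46.3% of all tested genes, with a median of −0.73 against 0.01. The genes are not independent of each other, and the groups overlapped for all 10. For comparison, the groups did not overlap at all for 0.426% of tested genes with MMP9 the higher and for 0.138% with MMP9 the lower.

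The regulators also varied far more between mice of 1 group than most genes did. The median SD within groups was 0.70 on the log2 scale for the 9 genes, against 0.24 for all tested genes, and the median standard error of a fold change was 0.42 against 0.15. The 95% interval of the fold change lay within a 2-fold change in either direction for 2 of the 9 genes (Gata3 and Ovol1), against 90.2% of all tested genes. For the other 7 genes the interval reached past a 2-fold lower level in MMP9 mice. Vehicle mouse 3 was the highest library for 8 of the 10 genes. Without that mouse the median log2 fold change was −0.27, and that of Foxe1 was above 0.

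**Figure D1:**
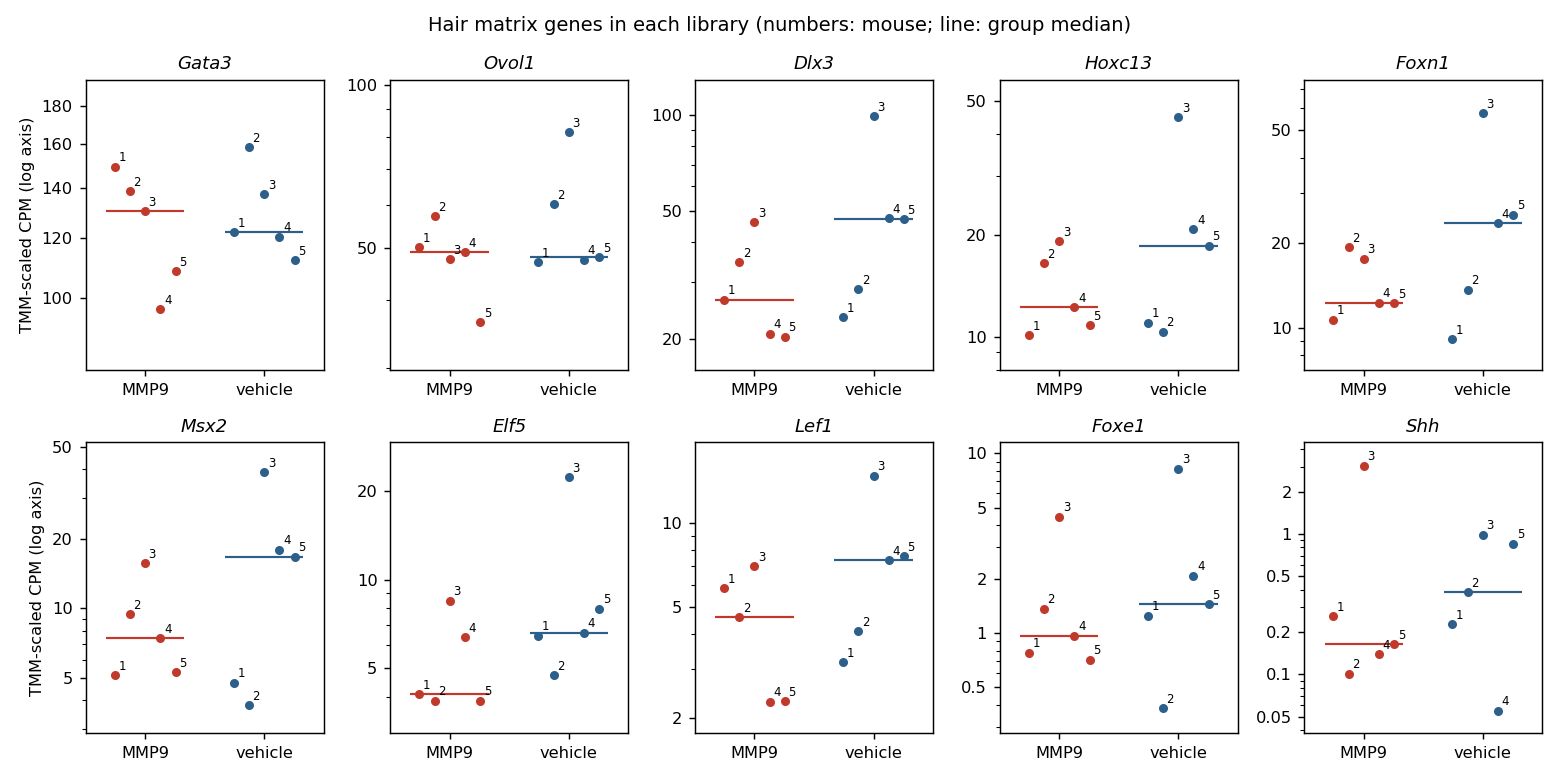
Level of each of the 10 genes in every library, in CPM on a log axis, with MMP9 mice left of vehicle mice; each numbered point is 1 mouse and the lines mark the group medians. The groups overlap in every panel, and vehicle mouse 3 is the highest point for 8 of the 10 genes.

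Among the homeobox factors, Dlx3, a Distal-less factor of the matrix and of differentiating epidermis, had 26.4, 34.6, 46.3, 20.7 and 20.3 CPM in MMP9 mice 1 to 5, against 23.3, 28.5, 99.4, 47.6 and 47.2 CPM in vehicle mice 1 to 5. Vehicle mouse 3 was far above all others, and vehicle mice 1 and 2 lay within the MMP9 range. The means were 29.7 ± 11.0 CPM in MMP9 mice and 49.2 ± 30.1 CPM in vehicle mice (SD, n = 5 each), a log2 fold change of −0.73 ± 0.38 (standard error, as after each fold change that follows; edgeR, adjusted p = 0.981).

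Hoxc13, which in the mouse controls hair keratin genes, had 10.1, 16.5, 19.2, 12.3 and 10.8 CPM in MMP9 mice, against 11.0, 10.4, 44.7, 20.8 and 18.6 CPM in vehicle mice. Apart from vehicle mouse 3, the libraries of both groups lay within about the same span. MMP9 over vehicle gave a log2 fold change of −0.61 ± 0.38 (edgeR, adjusted p = 0.981), and −0.14 without vehicle mouse 3.

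Msx2, a homeobox factor needed for keeping the mouse hair shaft, had the widest spread of the 3 homeobox genes. It had 5.13, 9.45, 15.7, 7.41 and 5.30 CPM in MMP9 mice, against 4.77, 3.82, 38.7, 17.9 and 16.7 CPM in vehicle mice. The vehicle group thus split into 3 mice above every MMP9 mouse and 2 mice below every MMP9 mouse. Its log2 fold change was −0.93 ± 0.58 (edgeR, adjusted p = 0.981) and a 95% interval of −2.20 to 0.34.

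Of the forkhead factors, Foxn1, the nude gene, had 10.7, 19.3, 17.5, 12.3 and 12.2 CPM in MMP9 mice, against 9.14, 13.7, 57.3, 23.4 and 25.1 CPM in vehicle mice. Vehicle mice 3, 4 and 5 lay above every MMP9 mouse, vehicle mouse 1 below every MMP9 mouse, and vehicle mouse 2 among them. The means were 14.4 ± 3.78 CPM in MMP9 mice and 25.7 ± 18.9 CPM in vehicle mice (SD, n = 5 each), a log2 fold change of −0.83 ± 0.42 (edgeR, unadjusted p = 0.0711 and adjusted p = 0.981). Without vehicle mouse 3 it was −0.31.

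Foxe1, a forkhead factor best known from the thyroid and also made in the hair follicle, was sparse. It had 0.777, 1.36, 4.45, 0.970 and 0.711 CPM in MMP9 mice, against 1.25, 0.382, 8.23, 2.09 and 1.45 CPM in vehicle mice. A single mouse stood out in each group, MMP9 mouse 3 and vehicle mouse 3, and the lowest value rested on 7 estimated counts, in vehicle mouse 2. The log2 fold change of −0.68 ± 0.75 (edgeR, adjusted p = 0.981), and without vehicle mouse 3 it was 0.36.

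Lef1, the DNA-binding partner through which β-catenin acts in the matrix, had 5.86, 4.60, 6.99, 2.29 and 2.30 CPM in MMP9 mice, against 3.18, 4.10, 14.8, 7.38 and 7.61 CPM in vehicle mice. The groups overlapped, with the 2 lowest values in MMP9 mice 4 and 5 and the 3 highest in vehicle mice 3, 4 and 5. The log2 fold change was −0.74 ± 0.44 (edgeR, adjusted p = 0.981). Lef1 is also made by T cells. Summed over 15 genes of T and innate lymphoid cells, the level was 551 to 618 CPM in MMP9 mice. In vehicle mice it was 460 to 663 CPM. Most of that sum came from Thy1 and Rora. Thy1 had 257 to 320 CPM in MMP9 mice and 207 to 355 CPM in vehicle mice. By single gene, 13 fold changes of the list were above 0 and 2 below. In edgeR's test 4 were higher and 0 lower at an unadjusted p under 0.05, and 0 passed after adjustment. Over all tested genes 2.07% were higher at that unadjusted p. The mean log2 level of the list over the 10 libraries had no relation to Lef1 that passed (r = −0.48, permutation p = 0.164, adjusted p = 0.422 over the 40 relations computed here; rho = −0.22, permutation p = 0.536). Without vehicle mice 3 and 1, r was −0.12.

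Elf5, a factor of the ETS family, had 4.09, 3.89, 8.49, 6.38 and 3.88 CPM in MMP9 mice, against 6.47, 4.75, 22.3, 6.61 and 7.97 CPM in vehicle mice. Vehicle mouse 3 was 2.63 times the second highest library, which was MMP9 mouse 3. The fitted log2 fold change was −0.85 ± 0.42 (edgeR, unadjusted p = 0.0684 and adjusted p = 0.981), and −0.27 without vehicle mouse 3.

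The zinc finger genes Gata3 and Ovol1 had the smallest ranges of the 10 genes. Gata3, a factor of the inner root sheath that T helper and innate lymphoid cells also make, had 149, 139, 130.4, 96.6 and 108 CPM in MMP9 mice, against 122, 158, 137, 120.5 and 112 CPM in vehicle mice. Among all libraries its highest and lowest differed 1.64-fold, against 2.24-fold for Ovol1. Its log2 fold change was −0.06 with a 95% interval of −0.37 to 0.25 (edgeR, adjusted p = 0.985). Its relation to the list of T and innate lymphoid genes did not pass over the 10 libraries (r = −0.29, permutation p = 0.421, adjusted p = 0.632; rho = −0.28, permutation p = 0.430; r = −0.32 without vehicle mice 3 and 1).

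Ovol1, a zinc finger factor of the differentiating epidermis that lies downstream of Lef1 and β-catenin in the mouse, had 50.1, 57.2, 47.6, 49.1 and 36.4 CPM in MMP9 mice, against 47.0, 60.2, 81.7, 47.6 and 48.0 CPM in vehicle mice. Apart from vehicle mouse 3 at the top and MMP9 mouse 5 at the bottom, the libraries lay close together. The log2 fold change was −0.24 with a 95% interval of −0.62 to 0.13 (edgeR, adjusted p = 0.981).

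**Figure D2:**
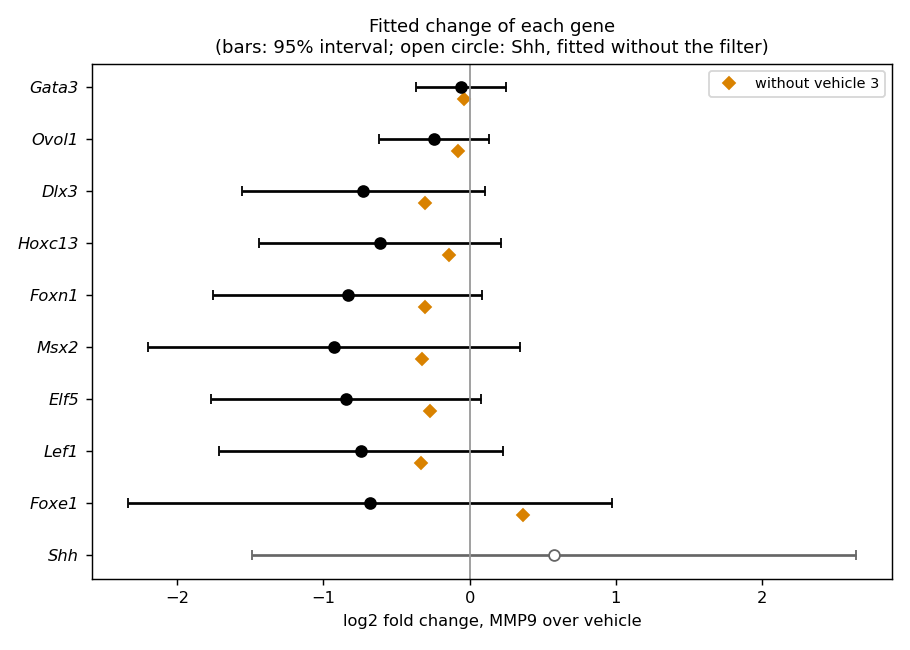
Log2 fold change of MMP9 over vehicle for each gene, with its 95% interval, in all 10 libraries and again without vehicle mouse 3; Shh comes from the fit with no filter on low counts. All intervals of the full set cross 0, and the values of the 9 filtered genes lie between −0.93 and −0.06, closer to 0 without vehicle mouse 3, with Foxe1 above 0.

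Shh, the ligand, was close to the limit of detection in most mice. Its estimated counts were 5, 2, 61, 2 and 3 in MMP9 mice and 4, 7, 17.9, 1 and 17 in vehicle mice, or 120 over all libraries. In CPM these were 0.259, 0.101, 3.05, 0.139 and 0.164 in MMP9 mice, against 0.227, 0.382, 0.988, 0.0550 and 0.852 in vehicle mice. MMP9 mouse 3 alone held about as many counts as the other 9 libraries together, and it was 3.09 times the second highest library, vehicle mouse 3. With no filter on low counts the log2 fold change was 0.58 ± 0.95 (edgeR, adjusted p = 0.963). Without MMP9 mouse 3 its sign turned, to −1.57 ± 0.71 (edgeR, unadjusted p = 0.0493 and adjusted p = 0.870). The direction for Shh therefore rested on 1 mouse.

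Further along the pathway, 17 Hedgehog genes were examined, of which 16 passed the filter, all but the ligand Ihh. In edgeR's test 0 of 16 were called, 8 had a fold change above 0 and 8 below 0, and the median log2 fold change was 0.005. Gli1, a target and effector of the pathway, had 21.1, 22.7, 27.6, 12.5 and 19.3 CPM in MMP9 mice, against 15.1, 14.9, 21.0, 17.3 and 14.9 CPM in vehicle mice. The MMP9 group held both the highest value, in mouse 3, and the lowest, in mouse 4, the library with the high share of ribosomal protein transcripts. Its log2 fold change was 0.32 ± 0.19 (edgeR, adjusted p = 0.981).

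Ptch1, the receptor of the ligand, was highest in MMP9 mouse 1 at 40.4 CPM and second highest in MMP9 mouse 3 at 35.4 CPM, and its log2 fold change was 0.08. Hhip, a membrane protein that binds and holds back the ligand, had 2.28, 3.64, 2.75, 2.15 and 2.68 CPM in MMP9 mice, against 3.12, 3.06, 3.84, 3.36 and 3.31 CPM in vehicle mice (log2 fold change −0.30 ± 0.17; edgeR, adjusted p = 0.981). The mouse with the most Shh transcript was thus also the highest for Gli1, and not for Ptch1 or Hhip.

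**Figure D3:**
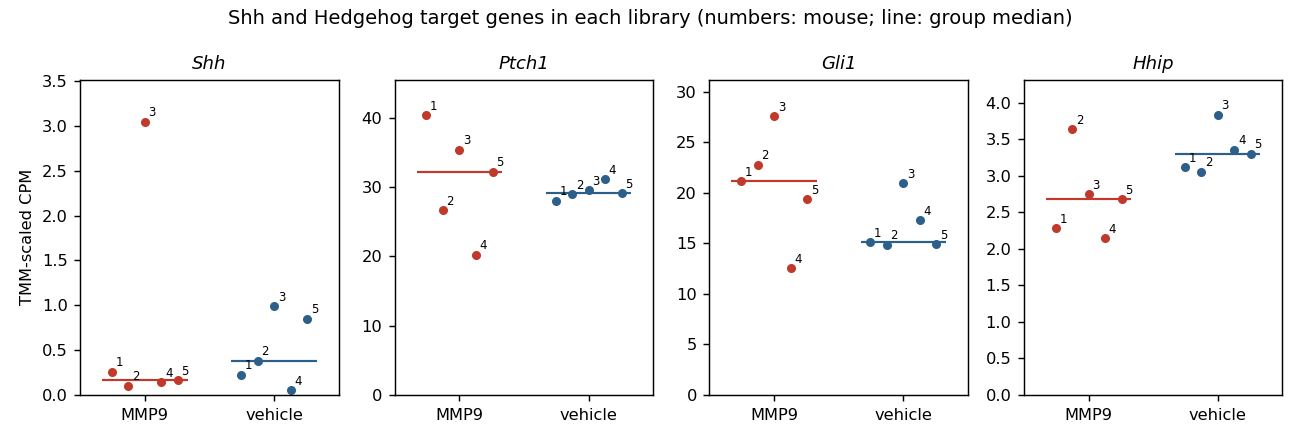
Levels of Shh and of the Hedgehog genes Gli1, Ptch1 and Hhip by library, in CPM on a linear axis from 0, with MMP9 mice left of vehicle mice; each numbered point is 1 mouse and the lines mark the group medians. Shh reaches 3.05 CPM in MMP9 mouse 3 and lies below 1 CPM in every other library, while the groups overlap for all 4 genes.

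The levels of the regulators were next set beside the hard keratins of the hair shaft, whose near-identical copies can share reads, so that single keratin values are less certain than their sum. Summed over 14 genes these were 11.7, 831, 697, 1202 and 458 CPM in MMP9 mice, against 633, 11.2, 3508, 1566 and 1640 CPM in vehicle mice. Krt86, a keratin of the shaft cortex, had 0.363 CPM in MMP9 mouse 1 and 0.0546 CPM in vehicle mouse 2, against 505 CPM in vehicle mouse 3. In MMP9 mouse 1, 2 of the 14 keratins were under 3 counts, and in vehicle mouse 2, 5 of 14 were. Inner root sheath genes were low in the same pair of mice, at 30.9 CPM in MMP9 mouse 1 and 33.1 CPM in vehicle mouse 2 over 10 genes, against 186 to 5249 CPM elsewhere.

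Most of the regulators were not near 0 in those 2 mice; the sparse genes Foxe1 and Shh had 15 and 5 counts in MMP9 mouse 1 and 7 each in vehicle mouse 2. Foxn1 had 10.7 CPM in MMP9 mouse 1 and 13.7 CPM in vehicle mouse 2, both above the 9.14 CPM of vehicle mouse 1, whose shaft keratins summed to 633 CPM. Counted from the top of the 10 libraries, Dlx3 had ranks 7 and 6 there, at 26.4 and 28.5 CPM. Lef1 had ranks 5 and 7, at 5.86 and 4.10 CPM. Both genes lay well below their levels in vehicle mouse 3, 99.4 CPM for Dlx3 and 14.8 CPM for Lef1. Hoxc13 was at the low end of its range in both, at 10.1 and 10.4 CPM. Foxe1 and Msx2 had their lowest values in vehicle mouse 2. Gata3 had its 2 highest values in exactly these mice, at 149 CPM in MMP9 mouse 1 and 158 CPM in vehicle mouse 2.

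Across the other 8 libraries, which hold 4 mice of each group, several regulators followed the shaft keratins. The relation was computed between log2 levels for the 10 genes and 4 gene lists, 40 relations in all, with the 2 keratin-poor libraries left out for the shaft keratins because they form a cluster of their own. All p-values are two-sided. For Msx2, r was 0.941 (exact permutation p = 0.000992, adjusted p = 0.0397 over the 40) and rho was 0.905 (exact permutation p = 0.00456, adjusted p = 0.0913). For Foxn1, r was 0.918 (exact permutation p = 0.00246, adjusted p = 0.0456) and rho was 0.905 (exact permutation p = 0.00456, adjusted p = 0.0913). For Hoxc13, r was 0.906 (exact permutation p = 0.00342, adjusted p = 0.0456) and rho was 0.810 (exact permutation p = 0.0218, adjusted p = 0.218). These 3 passed the adjusted threshold by r and none of the 10 genes did by rho.

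Leaving out the 2 libraries farthest from the median of the keratins, vehicle mice 3 and 1, gave lower values of r. They were 0.826 for Msx2 (exact permutation p = 0.0486), 0.714 for Foxn1 (exact permutation p = 0.115) and 0.717 for Hoxc13 (exact permutation p = 0.119). With so few libraries left, this cannot tell which of the relations rested on those mice. Dlx3, with r = 0.867, Lef1, with r = 0.832, and Elf5, with r = 0.821, missed the threshold over the same 8 libraries (exact permutation tests, adjusted p = 0.0625, 0.0817 and 0.0817). Gata3, with r = 0.229, and Shh, with r = 0.351, were lower still (exact permutation tests, adjusted p = 0.725 and 0.632). With all 10 libraries, r was 0.765 for Msx2, 0.704 for Hoxc13 and −0.60 for Gata3, and none of the 10 genes passed by r. By rho, Msx2 (rho = 0.939, permutation p = 0.000230, adjusted p = 0.00920) and Hoxc13 (rho = 0.891, permutation p = 0.00129, adjusted p = 0.0258) passed over all 10 libraries. In none of the other 30 relations, with T and innate lymphoid cells, interfollicular epidermis and cell cycle genes, did a gene pass. In the mouse, Hoxc13 and Foxn1 control hair keratin genes, and both sides of each relation share the library and its depth.

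**Figure D4:**
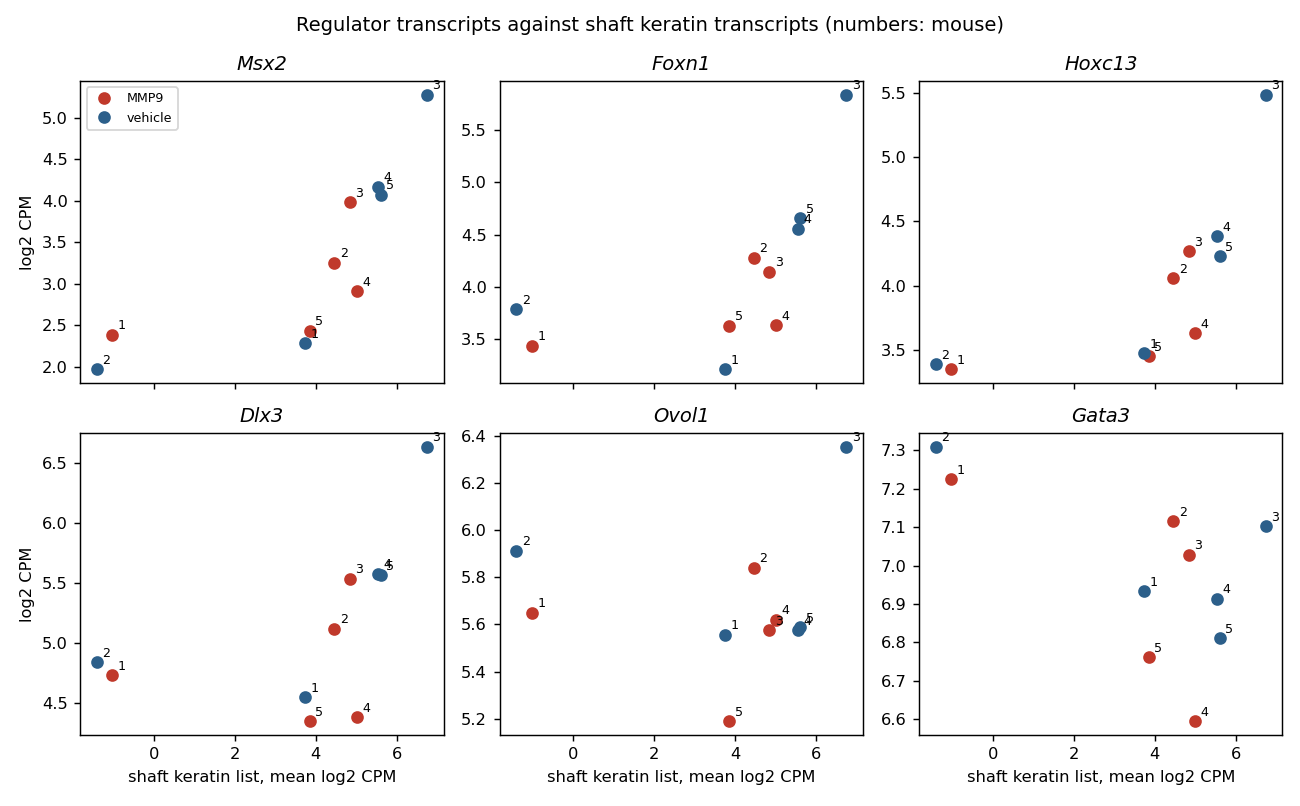
Level of Msx2, Foxn1, Hoxc13, Dlx3, Ovol1 and Gata3 in log2 CPM against the mean log2 CPM of the 14 hair shaft keratins, with 1 numbered point a mouse and the MMP9 and vehicle groups by colour. MMP9 mouse 1 and vehicle mouse 2 lie far to the left in each panel, at levels of Foxn1 and Dlx3 within the range of the other mice and at the 2 highest levels of Gata3.

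Several of the regulators also followed each other across those 8 libraries, described here with no test. Among Foxn1, Dlx3, Hoxc13, Lef1 and Msx2, the 10 pairwise values of Pearson's r lay between 0.91 and 0.99. With the same 5 genes, Foxe1 had 0.78 to 0.90, Elf5 0.75 to 0.84 and Ovol1 0.71 to 0.84. Gata3 had 0.48 to 0.65 and Shh 0.37 to 0.55. Over all 10 libraries the values among the 5 genes lay between 0.82 and 0.97. Those of Gata3 with the 5 genes then lay between −0.09, with Msx2, and 0.43, with Lef1. Every such value shares vehicle mouse 3, the highest library for all 5.

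The genes whose levels were most like each regulator were taken as the 3 with the highest Pearson's r of log2 CPM over the 8 libraries, among 14612 genes, as a description. Over all 10 libraries the r of these genes with their regulators ran from 0.53, for Ptprk with Foxe1, to 0.98, for Ppp2r1b with Dlx3. For Foxn1 these were Csdc2, Hephl1 and Ggt1 (r = 0.973, 0.964 and 0.950), and Csdc2 and Hephl1 also led for Hoxc13 (r = 0.971 and 0.969). Sp6, a zinc finger factor needed for normal hair and teeth in the mouse, came next for both Dlx3 and Hoxc13, after the pair at the top of each (r = 0.980 and 0.956). For Lef1, Wnt11, a Wnt ligand, came first (r = 0.990), and Ppp2r1b and Aplp1 were shared with Dlx3. For Msx2, Dsg4, the desmosomal cadherin of the hair shaft, came first (r = 0.978). For Elf5 the leading genes were Cxcl14, Capn12 and Gja1 (r = 0.970, 0.967 and 0.958), and for Foxe1 St14, Slc39a10 and Ptprk (r = 0.959, 0.959 and 0.958). For Ovol1 they were Trim29, Dnase1l3 and Cds1 (r = 0.965, 0.963 and 0.955), and for Gata3 Ptprf, BC034090 and Trim39 (r = 0.974, 0.974 and 0.971), with no gene shared with the others. The genes nearest to Shh, namely Sbno2, Pde4b and Rin1 (r = 0.977, 0.965 and 0.961), all had their highest level in MMP9 mouse 3, and the likeness rests on the sparse counts of Shh. Likewise, the genes nearest to Foxn1, Dlx3, Hoxc13, Lef1, Msx2, Elf5 and Foxe1 all had their highest level in vehicle mouse 3. Their likeness therefore shares that mouse.

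Other genes around the matrix had no calls either. Of 20 further follicle transcription factors 18 were tested, 0 were called, and 3 had a log2 fold change above 0 and 15 below, with a median of −0.14. Hr, the hairless corepressor, stood at −0.24, Sox9, a stem cell factor of the follicle, at −0.20 and Dlx2, a relative of Dlx3, at −0.43. Of 20 Wnt and BMP genes 19 were tested, with 0 called, 7 above 0 and 12 below, and a median of −0.06. Bmp2, a BMP ligand of the matrix, averaged 27.4 ± 4.55 CPM in MMP9 mice and 38.9 ± 9.88 CPM in vehicle mice (SD, n = 5 each), with a log2 fold change of −0.51 (edgeR, unadjusted p = 0.0129 and adjusted p = 0.981). Bmp4, a BMP ligand of the dermal papilla, stood at 0.22, and Id3, a BMP target, at 0.22.

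Among the products and neighbours of the matrix, the 14 shaft keratins had 13 fold changes below 0 and a median of −1.25, and the 10 inner root sheath genes had 10 below 0 and a median of −1.26, with 0 called in either list. Single shaft keratins had a median SD within groups of 3.56 on the log2 scale. Krt84 was the gene of the shaft keratin list above 0, with 12.2 ± 22.1 CPM in MMP9 mice and 2.98 ± 0.987 CPM in vehicle mice (SD, n = 5 each). The MMP9 mean rested on mouse 5 at 51.7 CPM, and the other MMP9 mice had 1.71 to 3.53 CPM, against 1.31 to 3.73 CPM in vehicle mice. Tgm3, a cross-linking enzyme of the sheath and shaft, averaged 12.2 ± 3.71 CPM in MMP9 mice and 27.9 ± 19.6 CPM in vehicle mice, with a log2 fold change of −1.19 (edgeR, unadjusted p = 0.0151 and adjusted p = 0.981). Of 22 cell cycle genes, 19 had a fold change below 0 (median −0.27, 0 called), and of 8 melanocyte genes tested all 8 did (median −0.40, 0 called). The dermal papilla, the signalling centre below the matrix, had 14 genes tested with 10 above 0 and a median of 0.07. Rspo3, a Wnt-enhancing ligand of the papilla, averaged 5.38 ± 0.808 CPM in MMP9 mice and 3.33 ± 0.841 CPM in vehicle mice (SD, n = 5 each), with a log2 fold change of 0.69 that did not pass (edgeR, unadjusted p = 0.00376 and adjusted p = 0.981). The outer root sheath list had a median of −0.09 over 12 genes. The interfollicular epidermis had 8 genes above 0 and 7 below, with a median of 0.01. The 15 T and innate lymphoid genes had 13 above 0 and a median of 0.33, also with 0 called. The lists of other tissues lay near 0, with a median of −0.01 for 12 sebaceous gland genes, 0.01 for 12 muscle genes, 0.11 for 5 salivary gland genes and −0.04 for 6 genes of other glands, and 0 called in each. Every marker found in the table had counts in at least 1 library. The part of any of these cell types in the levels of the regulators was not tested beyond the relations above.

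**Figure D5:**
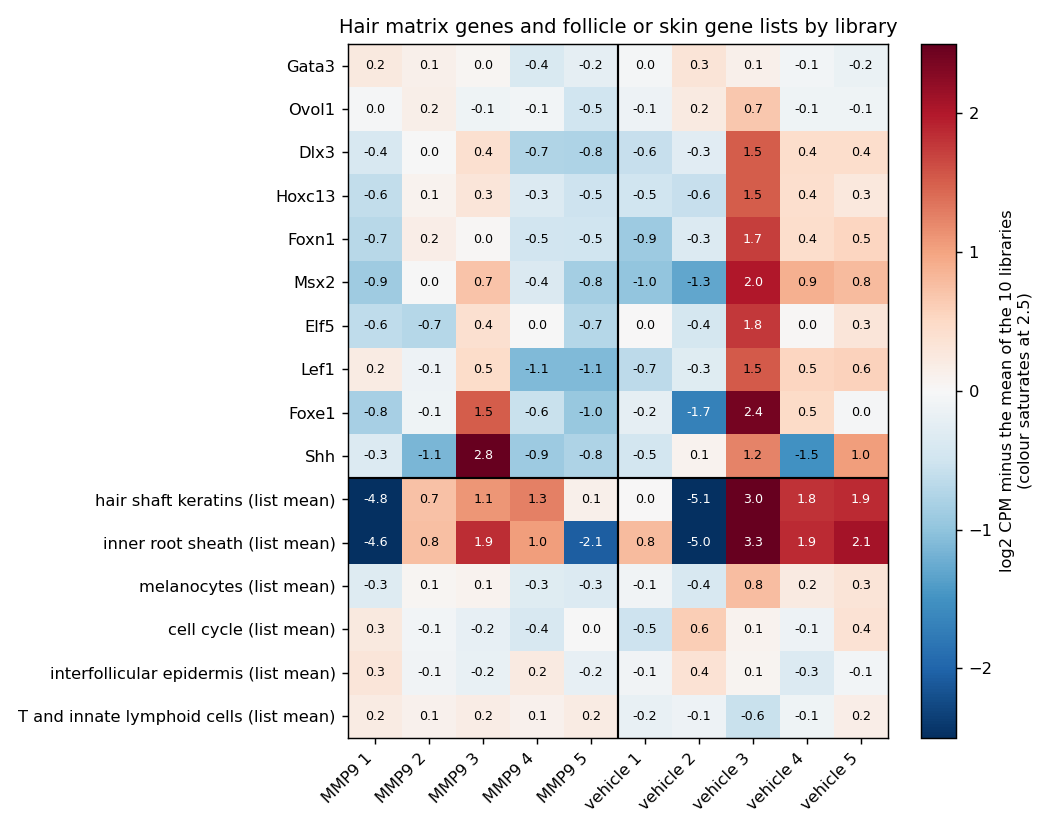
Level of each of the 10 genes (above the line) and mean level of 6 gene lists (below it) in every library, as log2 CPM minus the mean of the 10 libraries, with MMP9 mice left of vehicle mice; red is above the mean and blue below it. Of the 10 genes, 8 are highest in vehicle mouse 3, where the hair shaft keratins and inner root sheath genes are also highest, and the keratin lists are lowest in MMP9 mouse 1 and vehicle mouse 2.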

How the data were processed

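The labels and protocols describe oligo(dT)-selected mRNA read as single-end 50-base reads on a DNBSeq instrument. The submitters' processing notes name HISAT and GRCm39; no source used here names the quantification program, annotation, versions or strand setting. The authors deposited estimated counts per gene (60.8% of the values are not whole), with TPM and FPKM; the deposited TPM values gave levels between genes and an alternative test (limma), and the deposited FPKM values were not used.

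After rounding, counts went through edgeR 4.0.16 (R 4.3.3; TMM, filterByExpr, quasi-likelihood F test, treatment as the only term, Benjamini-Hochberg adjustment, threshold 0.05). The filter kept 15250 genes and 99.9% of counts and left out 3744. Log2 CPM values have a prior count of 2. Correlation tests enumerated all pairings for 8 libraries and drew 100000 resamples for 10. The test was checked on simulated data.

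The genes and the lists (221 entries, 208 matched) were chosen with earlier results of these data known. By rule, all 10 regulators are named, with up to 4 genes of smallest p from each list and, for likeness, genes of at least 1 CPM on average; Ptch1 lies outside the rule and was chosen after its values were seen. A gene picked by that rule is not reported here. The alternatives are in the closing section. The intervals give the uncertainty of the fitted fold change, estimated from the spread between these mice.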

Additional observations from a re-analysis of the deposited data

Results flagged for a closer look

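In 5 of 32 groups of 5 libraries examined, 1 library stood farther from the rest than Dixon's critical value of 0.71. Single genes were examined in CPM and the keratin lists in mean log2 CPM. The nominal rate of 1 in 20 holds for independent values with a normal distribution. CPM values can be skewed and all groups come from the same mice, so the 5 flags are a description and were not set against that rate. Elf5 had 22.3 CPM in vehicle mouse 3, against 4.75 to 7.97 CPM in the other vehicle mice. Foxe1 had 4.45 CPM in MMP9 mouse 3, against 0.711 to 1.36 CPM in the other MMP9 mice, and 8.23 CPM in vehicle mouse 3, against 0.382 to 2.09 CPM in the other vehicle mice. Shh had 3.05 CPM in MMP9 mouse 3, against 0.101 to 0.259 CPM in the other MMP9 mice. The mean log2 CPM of the hair shaft keratins was −1.02 in MMP9 mouse 1, against 3.85 to 5.00 in the other MMP9 mice. The keratins of vehicle mouse 2 were as low, but that group was more spread out and did not pass the same criterion.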

How the results depend on the processing

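Of 287 values recomputed over the alternatives, 279 were counted as kept. A fold change was kept if its direction and its side of the threshold stayed the same. All adjusted p-values of the regulators lay far above the threshold in each fit, so the direction alone decided this. The kept counts of calls were 0 before and after. The median of the regulators was counted as kept if it moved by less than 0.65, the SD within groups of their median level. That margin also took in the −0.27 without vehicle mouse 3, so the tally does not measure how firm the median was. With DESeq2 1.42.0, 1 gene passed over all genes (Pnliprp2) and 3 regulators had an unadjusted p under 0.05 (Foxn1, Dlx3 and Elf5). Foxe1 turned to a log2 fold change of 0.16 with 1 surrogate variable and 0.36 without vehicle mouse 3, Gata3 to 0.0150 without MMP9 mouse 4 and 0.0196 without vehicle mouse 2, and Shh to −1.57 without MMP9 mouse 3; the cause was not tested. Leaving out each mouse in turn left 0 to 0 genes, regulators or Hedgehog genes called, with Foxe1 between −1.49 and 0.36, Gata3 between −0.14 and 0.0196 and Shh between −1.57 and 0.97. The median of the regulators ran from −0.95 (without MMP9 mouse 3) to −0.27 (without vehicle mouse 3). Without MMP9 mouse 1 and vehicle mouse 2 together it was −0.84. Of the 40 relations, the 3 that passed by r became 6 with log2(TPM + 1), 5 of them with the shaft keratins, and 0 with all 10 libraries; by rho the counts were 0, 1 and 2. Both settings were chosen after the data were seen. With the mouse number as a replicate block the median was −0.60 and 0 regulators passed (1, Elf5, at an unadjusted p under 0.05), with 554 genes at an unadjusted p under 0.05 against 487 without it (620 with DESeq2 and 462 with limma-voom). Same-numbered mice had correlated deviations of −0.24, −0.05, 0.46, 0.14 and 0.20, and 1 of 5 MMP9 libraries correlated best with its own number, so the numbers were not taken as pairs. The 120 counts of Shh limit any statement on it, and the spread between mice limits the rest.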
